A study of Homo sapiens with 8 samples.

Results

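Strong H3K27Ac regions of D425 that were absent or at least 4-fold weaker in the other Group 3 medulloblastoma (G3-MB) lines, MB002 and HDMB03, are described here. They were chosen from the 26317 D425 regions. The 500 regions with the highest signal were kept, and the strongest overlapping region of each other line was looked up with a minimum overlap of 1 bp. A region was called D425-particular when in both lines it had no overlapping region or a match at least 4-fold weaker. The rule returned 205 of the 500 regions (41.0%).

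The signal of a region was its H3K27Ac ChIP signal minus its input signal, set to 0 where negative and divided by the median over all regions of that line. A value of 1 is thus the median region of a line. It is a total over the whole region, so that it grows with length as well as height. The 4 lines of the series were D425, MB002 and HDMB03, labelled as Group 3, and UW228, labelled as SHH subtype. All were untreated cultures of established lines, each a single line and thus no more than 1 tumor of its subtype. Each had 1 H3K27Ac and 1 input library, without replicates. No error between replicates or test could therefore be given, and every value describes single libraries. Their sequencing depth is unknown. D425 was grown in DMEM with fetal bovine serum, as was UW228 per the methods of the study, whereas MB002 and HDMB03 were grown in a serum-free tumor stem medium. A difference between D425 and the other G3-MB lines and a difference between these media cannot be told apart.

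H3K27Ac is an acetylation of histone H3 that is found on active promoters and enhancers. Peaks that lie close together are stitched into larger regions, and the few regions with the highest signal are called super-enhancers (SEs), as opposed to typical enhancers (TEs). SEs often lie near genes that define the identity of a cell, and in G3-MB they mark *OTX2* and *CRX*, homeobox factors of the photoreceptor lineage, and the *MYC* locus. The label of the lines was checked against these markers with the strongest region within 50 kb of each gene. At *OTX2* the signal was 353.9 in D425, 733.5 in MB002 and 208.3 in HDMB03, and at *CRX* it was 78.1, 75.1 and 10.3, respectively. *NRL*, a photoreceptor leucine zipper factor, had 26.6, 8.46 and 17.8. UW228 had no region at any of these 3 genes. D425 also had regions at *IMPG2* (22.6) and *EYS* (13.9), both photoreceptor genes, but none at *NPR3* or *GABRA5*, which lacked a region in MB002 and HDMB03 too, whereas UW228 had a region of 2.96 at *NPR3*. Of 7 markers of SHH tumors, UW228 had no region at *GLI2* or *ATOH1*. It had 0.848 at *GLI1*, where D425 had 36.4, MB002 11.8 and HDMB03 32.8, and 0.52 at *PTCH1*, where they had 4.74, 8.63 and 53.6. The G3-MB regions at *GLI1* were also the strongest within 50 kb of *MARS1*, and that of D425 ended before the start of *GLI1*. At *PDLIM3* UW228 had 6.62, against 3.74, 9.50 and 35.9, and at *HHIP* 0.151, against none, 0.101 and 0.371. *SFRP1* had a region in UW228 only (4.66). UW228 was thus the highest of the 4 lines at *SFRP1* alone.

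The promoters of 4 genes inside D425-particular regions are shown, since the results turn on these loci. *ENAH* lay in the strongest member and *SMAD3* in the strongest member whose nearest gene was a SMAD. *VGLL3* and *ARHGAP5* each lay inside a single unbroken peak. Each sequence holds the 250 bases before the RefSeq start of the gene (GRCh38.p14), 5′ to 3′ on the strand of the gene. They lie at chr1:225653124-225653373 (minus strand), chr3:86991150-86991399 (minus), chr14:32077054-32077303 (plus) and chr15:67065352-67065601 (plus). Capitals mark matches, on either strand, to any of 7 short motifs that are given with their frequencies further on.
ENAH: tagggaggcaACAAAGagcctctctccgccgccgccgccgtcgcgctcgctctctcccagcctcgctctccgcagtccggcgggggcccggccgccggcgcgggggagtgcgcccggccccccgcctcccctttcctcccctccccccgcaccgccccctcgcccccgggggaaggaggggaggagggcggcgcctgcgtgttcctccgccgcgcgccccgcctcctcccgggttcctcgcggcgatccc
VGLL3: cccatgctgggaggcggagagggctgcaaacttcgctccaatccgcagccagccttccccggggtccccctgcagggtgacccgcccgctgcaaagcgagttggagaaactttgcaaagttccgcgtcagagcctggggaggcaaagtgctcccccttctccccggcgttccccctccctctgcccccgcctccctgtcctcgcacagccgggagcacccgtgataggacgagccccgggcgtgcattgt
ARHGAP5: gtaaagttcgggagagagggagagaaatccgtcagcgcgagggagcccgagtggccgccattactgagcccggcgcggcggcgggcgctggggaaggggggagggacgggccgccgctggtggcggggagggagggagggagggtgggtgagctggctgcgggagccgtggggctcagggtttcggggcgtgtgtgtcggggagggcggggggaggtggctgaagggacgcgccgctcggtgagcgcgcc
SMAD3: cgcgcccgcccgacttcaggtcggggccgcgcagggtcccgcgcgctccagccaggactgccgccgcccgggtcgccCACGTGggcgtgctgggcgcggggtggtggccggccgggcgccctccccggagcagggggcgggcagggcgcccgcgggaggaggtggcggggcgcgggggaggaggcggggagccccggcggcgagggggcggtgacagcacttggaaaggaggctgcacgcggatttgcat
*ENAH* held 1 match to ACAAAG and *SMAD3* held 1 match to CACGTG, whereas *VGLL3* and *ARHGAP5* held none of the 7 motifs. The 4 promoters were rich in G and C. Their GC content was 80% at *ENAH*, 67.6% at *VGLL3*, 74.4% at *ARHGAP5* and 80.8% at *SMAD3*, against a median of 58% over 34943 RefSeq promoters of the same length. They held between 18 and 36 CG dinucleotides, against a median of 11.

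Of the other 295 strong D425 regions, 123 had a match within 4-fold in both lines, 125 in MB002 only and 47 in HDMB03 only. The same rule was run on the 500 strongest regions of each other line as a background. It returned 143 regions in MB002 (28.6%) and 112 in HDMB03 (22.4%). In UW228, set against all 3 G3-MB lines, it returned 251 (50.2%). Strength did not set the D425 share apart, since the next 500 D425 regions gave 230 (46.0%) and all 26317 D425 regions gave 14709 (55.9%). Thus, a D425 region was less often particular among the strongest than among all regions, and D425 had the largest share of the 3 G3-MB lines on this scale. By summed signal, 40 of 205 members (19.5%) had no overlapping region in either line and the others had a weaker one. The share was 59.55% of the 89 regions chosen per bp and 78.0% of the 50 chosen per bp of called peak, both scales described further on. MB002 had an overlapping region for 142 members, with a median rank of 6109.5 of its 26072 regions, and HDMB03 for 119, with a median rank of 4417 of 15286.

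**Figure D1:**
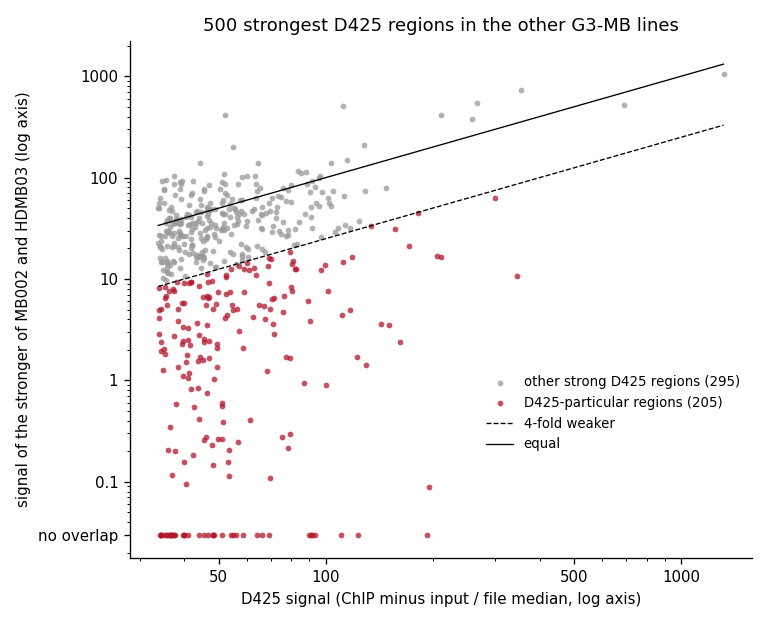
Each point is 1 of the 500 strongest D425 regions, with its D425 signal on the horizontal axis and the higher of its MB002 and HDMB03 signals on the vertical axis (both in medians of the file, log axes). The 205 D425-particular regions in red lie on or below the dashed 4-fold line, 40 of them at the bottom, where neither line had an overlapping region.

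The values that chose the members are given next as a description. Members had a median signal of 49.1, from 33.9 to 346.5, close to the median of 47.2 in the other strong regions. They were longer, with a median of 54481 bp against 40842 bp, and were stitched from a median of 19 peaks against 13. Of the 205 members, 178 (86.8%) were called as SEs by the authors, as were 253 of the other 295 (85.8%). A protein-coding transcription start site (TSS) lay inside 103 members, and 166 overlapped the body of a protein-coding gene. The members had 200 distinct nearest genes, taken by the TSS closest to their centre, of which non-coding RNA genes were part. Therefore the nearest protein-coding gene is given in brackets where it differs.

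The 25 strongest members outside the 2 windows treated separately are given with the known role of the gene. They are ordered by role for reading, an order made after the loci were seen and not a test of any theme. Values are signals summed over the region. The strongest member lay over *ENAH*, an actin regulator of the Ena/VASP family (chr1:225606600-225791206, 184.6 kb, 71 peaks). Its signal was 346.5 in D425, 10.8 in MB002, 7.59 in HDMB03 and 27.8 in UW228. D425 was thus 32.2-fold above the next G3-MB line by summed signal. The region at *MYH9-DT* (*MYH9*, the heavy chain of non-muscle myosin IIA; chr22:36321403-36471259) had 162.2 in D425, 1.07 in MB002, 2.39 in HDMB03 and 50.4 in UW228. *ACTN4*, which encodes an actin-crosslinking alpha-actinin (chr19:38647638-38736902), had 134.2, 5.08, 33.1 and 80.0, respectively. *TNS3*, a tensin of focal adhesions (chr7:47428531-47651486), had 130.05 in D425, none in MB002, 1.43 in HDMB03 and 93.2 in UW228. By summed signal, the regions at *MYH9-DT*, *ACTN4* and *TNS3* were thus high in D425 and UW228 and low in MB002, with HDMB03 intermediate only at *ACTN4*. When the signal was taken per bp, again divided by the median of the line, the higher of MB002 and HDMB03 exceeded D425 at all 3, with 129.2%, 109.2% and 105.1% of the D425 value. *MIR6124* lay within *MICAL2*, an actin-oxidizing enzyme (chr11:12106210-12257275), with 182.0 in D425, 10.4 in MB002, 44.7 in HDMB03 and 41.3 in UW228. The region at *SPTBN1-AS1* (*EML6*; chr2:54522245-54674758), the antisense gene of a spectrin, had 205.7, 16.7, 1.22 and 27.3. *PTPRF*, a receptor tyrosine phosphatase of cell contacts (chr1:43465379-43566641), had 101.6, 7.67, 3.53 and 3.39. The order also turned per bp at *SPTBN1-AS1* (101.6% of D425) and *PTPRF* (414.1%), and per bp of called peak at *MIR6124* (122.4%).

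The next 3 loci lay at genes known to act in or on the Hippo pathway, of which *VGLL3* and *AMOTL2*, but not *WWC1*, are on the YAP and TEAD list described further on. This kinase cascade restrains YAP and TAZ, cofactors that bind DNA through TEAD factors. *VGLL3*, a TEAD cofactor, had a single peak of 27.2 kb (chr3:86948099-86975258) with a signal of 192.9 in D425, no overlapping region in MB002 or HDMB03, and 14.4 in UW228. *WWC1*, an upstream Hippo scaffold known as KIBRA (chr5:168269184-168379013), had 122.9 in D425, none in MB002 or HDMB03 and 1.06 in UW228. *LINC02004* (*AMOTL2*, an angiomotin that binds YAP; chr3:134307951-134376206) had 111.5 in D425, 4.45 in MB002, 2.08 in HDMB03 and 16.7 in UW228. By summed signal D425 had the highest value of the 4 lines at these 3 loci. At *LINC02004* the higher other G3-MB line had 160.6% of the D425 value per bp.

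*LINC01713* (*BMP2*, a bone morphogenetic protein; chr20:6606537-6746079) had 122.9 in D425, 1.71 in MB002, none in HDMB03 and 2.08 in UW228. *JAG1*, a Notch ligand (chr20:10646581-10726338), had 97.1, 5.41, 12.3 and 2.90. At *ALK*, a receptor tyrosine kinase (chr2:29701908-29791010), the signal was 151.1 in D425, 3.53 in MB002, 2.2 in HDMB03 and none in UW228. *PLXNC1*, a semaphorin receptor (chr12:94141195-94243246), had 143.6 in D425, 3.63 in MB002 and none in HDMB03 or UW228. By summed signal, *ALK* and *PLXNC1* were thus high in D425 only among these 4 lines. Per bp, the higher other G3-MB line had 123.4% of the D425 value at *LINC01713*, and per bp of called peak it had 106.6% at *JAG1*.

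The region at *BCL2L1-AS1* (*BCL2L1*, the anti-apoptotic BCL-XL; chr20:31660518-31724001) was the second strongest member outside the windows. It had 300.2 in D425, 62.3 in MB002, 6.35 in HDMB03 and 52.7 in UW228. *GADD45B*, a stress-response gene (chr19:2478418-2613851), had 194.9 in D425, 0.0882 in MB002, none in HDMB03 and 13.5 in UW228. *MIR6071* lay in *ATOH8*, a bHLH factor (chr2:85728770-85812986), with 171.3, 21.3, 19.1 and 0.167. *RBCK1*, a component of the linear ubiquitin ligase (chr20:360522-428893), had 117.3, 0.877, 4.92 and 7.71. *MED9*, a Mediator subunit (chr17:17344834-17450691), had 111.6, 14.8, 10.5 and 2.06. *ABCC4*, an export pump for organic anions (chr13:95191747-95283936), had 99.8, 13.9, 6.18 and 16.8. *LINC01819* (*HAAO*; chr2:42915456-43059067) had 157.1, 31.5, 16.2 and 1.45, and *ERGIC1*, of the secretory pathway (chr5:172824957-172920473), had 100.3, 0.311, 0.899 and 15.1. The remaining 3 of the 25, at *LINC02313* and *ARHGAP5*, belong to a run of regions on chromosome 14 described further on. Per bp, the higher other G3-MB line exceeded D425 at *MED9* (109.2%), *ABCC4* (286.3%) and *LINC01819* (318.8%). Over the 25 members, 5 kept the 4-fold difference per bp, 10 fell below it and at 10 the order turned. Per bp of called peak these counts were 5, 14 and 6. By summed signal D425 was the highest of the 4 lines in all 25 members. The rule fixes the order against MB002 and HDMB03. Taking the strongest D425 regions also favours D425 over UW228, whose 500 strongest regions reached down to 18.5, against 33.8 in D425.

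**Figure D2:**
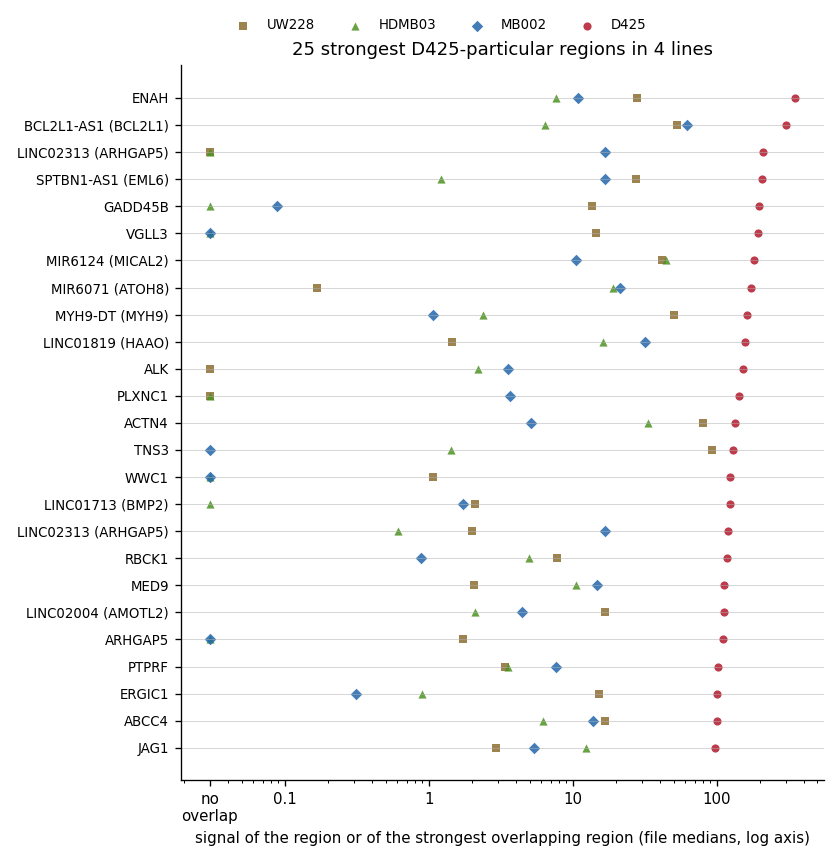
Signal of the 25 strongest D425-particular regions outside the 2 windows (horizontal log axis, in medians of the file) in D425 and of the strongest overlapping region in MB002, HDMB03 and UW228, labelled by the nearest gene with the nearest protein-coding gene in brackets. By this summed signal D425 is the highest line for each region, which the choice of the strongest D425 regions favours. UW228 comes closest at TNS3 and ACTN4.

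The extent and height of the members are given next. The rule chose them by summed signal, which is length times height, so that longer or higher regions in D425 are in part fixed by the choice. For the 142 members that overlapped an MB002 region, the D425 region was a median of 10.8 times as long and had 16.4 times the signal, and 1.42 times the signal per bp, here in normalized reads per bp. D425 was the higher per bp in 89 of the 142. For the 119 that overlapped HDMB03, the median ratios were 13.5 for length, 23.3 for signal and 1.79 for signal per bp, with D425 higher per bp in 88. In the other 295 strong regions the median ratios to MB002 were 1.22 for length and 0.978 for signal per bp, and those to HDMB03 were 1.92 and 1.36, with D425 higher per bp in 183 of 280. D425 was higher than MB002 per bp in 139 of 289. Called peaks covered more bases in D425 in all 142 and all 119 members, and in 154 of 289 and 220 of 280 of the other strong regions. Examples lay at both ends. At *BCL2L1-AS1* the regions of D425 and MB002 had nearly the same length, 63.5 kb and 62.8 kb, and the signal per bp was 3.39 in D425, 0.883 in MB002 and 0.275 in HDMB03. In contrast, at *PTPRF* the D425 region was 101.3 kb long and the MB002 region 2.21 kb, and the signal per bp was 0.719 in D425 and 3.08 in MB002. At *SMAD3* the signal per bp was likewise lower in D425 (0.801) than in MB002 (1.87) or HDMB03 (2.3), over regions of 73.3 kb in D425 and 4.10 kb in MB002.

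**Figure D3:**
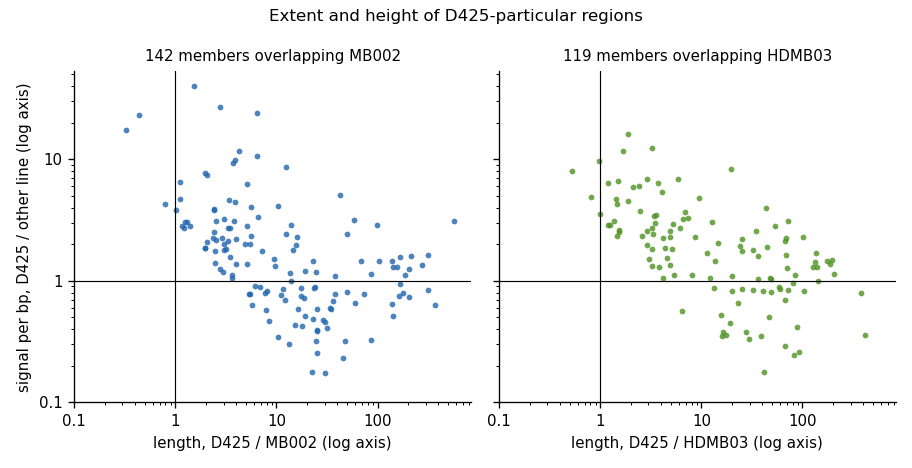
D425-particular regions that overlap a region of MB002 (left, 142) or HDMB03 (right, 119), with the ratio of region lengths on the horizontal axis and the ratio of signal per bp on the vertical axis (D425 over the other line, log axes). Nearly all points lie right of the line at 1, whereas they spread above and below the horizontal line at 1.

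The count changed with the scale. When the 500 strongest regions were taken by signal per bp in every line, 89 D425 regions met the rule, of which 12 were among the 205. The order of the lines turned, with 17.8% in D425, 26.0% in MB002 and 34.4% in HDMB03. With the signal per bp of called peak, a scale added after the data were seen, 50 D425 regions met it (10.0%), against 18.4% in MB002 and 21.2% in HDMB03. D425 thus had the largest share by summed signal and the smallest by signal per bp. After the signal was divided by the relative input density (the input signal per bp over its median in the line), 287 regions met the rule, of which 172 were among the 205.

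**Figure D4:**
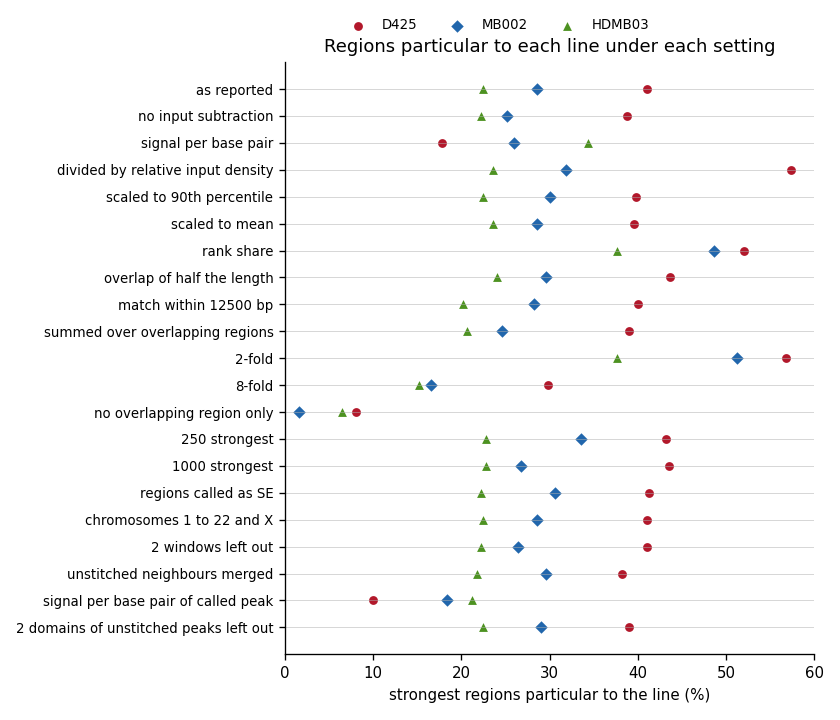
Share of the strongest regions of each G3-MB line that met the rule against the other G3-MB lines (horizontal axis, %), for the reported setting and each alternative. D425 has the highest share in all settings but the 2 per base pair, where it has the lowest.

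A run of densely marked chromatin in D425 held 5 of the members. In the deposited table, 689 separate regions lay between 30918256 and 32226354 on chromosome 14, each a single peak, although their median gap was 579.5 bp and the largest 9135 bp, less than the stitching distance of 12 kb named in the header. Together they covered 49.5% of 1308.1 kb. Genes with a TSS inside included *AP4S1*, *STRN3*, *HEATR5A*, *DTD2*, *GPR33*, *NUBPL* and *ARHGAP5*. Summed over the span, the signal was 1404 in D425, 68.7 in MB002, 39.8 in HDMB03 and 29.7 in UW228, and MB002, HDMB03 and UW228 had 18, 12 and 13 regions there. The input of D425 was not raised, with a relative density of 0.802. Within the run, the single peak of 22.0 kb next to *LINC02313* (chr14:31948933-31970961) had a signal of 210.8 in D425 and 16.6 in MB002, with no region in HDMB03 or UW228. Its neighbour over *LINC02313* (chr14:31932382-31948747) had 118.7 in D425, 0.607 in HDMB03 and 1.99 in UW228, and overlapped the same MB002 region of 16.6. The peak over the start of *ARHGAP5*, a GTPase-activating protein (chr14:32074834-32089837), had 110.2 in D425, 1.72 in UW228 and no counterpart in MB002 or HDMB03. The peak at *DTD2* (chr14:31455596-31462779) had 46.5 in D425 with no region in any other line.

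A smaller run of 167 regions lay on chromosome 3 between 86910922 and 87287046, with *VGLL3*, *CHMP2B* and *POU1F1* inside. Its summed signal was 490.1 in D425, 0.149 in MB002, 0.448 in HDMB03 and 14.7 in UW228, at a relative input density of 0.712. Called peaks covered 48.9% of its 376.1 kb. Both of its members lay at *VGLL3*. Besides the 27.2 kb peak, a peak of 13.6 kb over the *VGLL3* promoter (chr3:86981708-86995317) had 91.4 in D425 and none in MB002 or HDMB03. D425 had 2022 regions in 90 such runs of neighbours at most 12 kb apart, against 585 in 81 in MB002, 457 in 74 in HDMB03 and 459 in 49 in UW228. The longest run in the other lines had 25 regions in MB002, 34 in HDMB03 and 35 in UW228. When neighbours at most 12 kb apart were merged in all lines, the run on chromosome 14 became the strongest region of D425, above the strongest region of the *MYC* locus (1276 against 1197, in medians of the merged table), and the run on chromosome 3 ranked 4. The rule then returned 191 members, with 178 at the same places. The runs were found and the merging was chosen after the data were seen, and why these regions were not stitched in the table was not tested. Single peaks of at least 10 kb numbered 11 in D425, of which 8 were members, against 10 in MB002, 6 in HDMB03 and 14 in UW228.

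**Figure D5:**
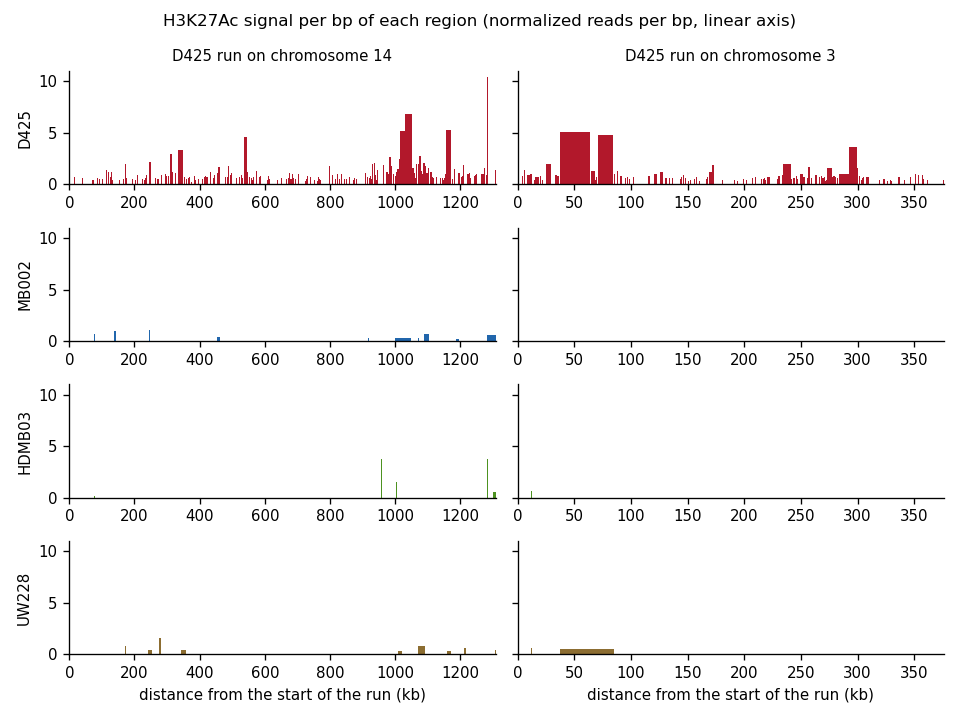
H3K27Ac signal per bp of each deposited region (vertical linear axis, normalized reads per bp after input subtraction) along the run on chromosome 14 (left) and the run on chromosome 3 (right) in 4 lines, by distance from the start of the run in kb. D425 fills both spans with many narrow and a few broad regions, whereas the other lines have 18 or fewer regions in the left span and at most 2 in the right.

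Of the 40 members with no overlapping region in MB002 or HDMB03, 38 lay outside the windows, with signals from 34.2 to 192.9, and 11 of the 38 had no region in UW228 either. *CEBPA*, a basic leucine zipper factor of myeloid, liver and fat cells, lay in such a member (chr19:33241037-33331751, 90.7 kb, 33 peaks), with a signal of 93.2 in D425 and no region in the other 3 lines. *FOXA2*, a factor of endoderm development named here after its values were seen, also had a region (37.3) without a counterpart in the other 3 lines. Of 2 further unmatched members assigned to *FOXA2* by nearest protein-coding gene, that at *LINC00261* (48.3) had no UW228 region, whereas that at *LINC01427* (36.7) overlapped a UW228 region of 29.7.

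UW228 was not used to choose the members. It had an overlapping region for 147 of 205 members (71.7%) and for 211 of the other 295 strong D425 regions (71.5%). Of the regions chosen per bp it overlapped 33.71%, and of those chosen per bp of called peak 34.0%. A UW228 region within 4-fold of D425 or stronger was found for 35 members (17.1%) and 49 others (16.6%), so that the members and the other strong D425 regions differed little in this respect. By the same measure, UW228 matched 6 of the 143 MB002-particular regions (4.20%) and 12 of the 112 HDMB03-particular regions (10.7%). The share over the other strong regions of MB002 and HDMB03 was not computed. These lower values therefore cannot be read as a trait of the particular regions. UW228 was the stronger line at 7 members, which are named after their values were seen. They lay at *LINC03033* (*HIF1A*; 71.4 in D425 and 216.6 in UW228), at 2 regions of *MIR21* (69.4 and 43.6 in D425, both overlapping a UW228 region of 85.3), *LINC02518* (*MARCKS*; 51.1 and 58.1), *MYLK-AS2* (*MYLK*, the myosin light chain kinase; 40.5 and 43.4), *MIR2278* (*AOPEP*; 37.5 and 50.7) and *NFIX*, a nuclear factor I gene (35.4 and 61.9). D425 and UW228 shared the serum medium, and the tables of UW228 and of the G3-MB lines were made at different dates per their headers. The part of either in these shares was not tested.

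The nearest genes of the members were set against 14 gene lists. Counts are by the nearest gene of any type, and over all 27333 genes with a position, 200 (0.732%) were nearest to a member. By nearest protein-coding gene the share over all protein-coding genes was 1.01%. The TGF-beta, activin and BMP list, a family of secreted ligands whose receptors act through SMAD proteins, had 4 of 40 genes, all SMADs. *SMAD3*, the mediator of TGF-beta and activin signals (chr15:67009916-67083187), had 81.9 in D425, 8.63 in MB002, 12.46 in HDMB03 and 28.2 in UW228. *SMAD9*, of the BMP branch (chr13:36881521-36921400), had 76.1, 4.71 and 0.754 in the G3-MB lines and none in UW228. The inhibitory SMADs followed. *SMAD7* (chr18:48890917-48952036) had 55.0 in D425, no region in MB002 or HDMB03 and 19.4 in UW228, and *SMAD6* (chr15:66617406-66684432) had 46.3, 0.753, 0.209 and 0.208. By nearest protein-coding gene, *SMAD5* (79.3 in D425, 18.5 in MB002, 0.443 in HDMB03 and 32.0 in UW228) and *BMP2* were added. The second region assigned to *BMP2*, at *CASC20* (chr20:6439186-6533068), had 69.9, 5.11, 0.234 and no UW228 region. Of the other 295 strong regions, 2 had a nearest gene of this list, *INHBB* and *INHBE*, and by nearest protein-coding gene *SKI* made it 3. No SMAD gene was among them.

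The YAP and TEAD list had 3 of 22 genes. Besides *VGLL3* and *AMOTL2*, which had a second member (chr3:134392339-134432597; 40.9 in D425, 3.32 in MB002 and 0.664 in HDMB03), it had *ANKRD1*, a commonly used YAP target (chr10:90915353-90940494; 34.3, 1.97, none and 19.7 in UW228). The other strong regions had *TEAD1* and *AJUBA*. Other lists had few members. From the AP-1 list, *MAFK* (60.8 in D425, none in MB002 and 12.3 in HDMB03) was 1 of 17. From the WNT list, *FZD5*, a Frizzled receptor (67.3, 4.03 and none), and *LRP5*, a WNT co-receptor (39.8, 0.158 and none), were 2 of 56. Of 47 axon guidance genes there were 2, *PLXNC1* and *EFNA1*, an ephrin (41.8, 9.32 and 5.03). From the list of collagens, integrins and matrix genes, *ITGB5*, an integrin, had 45.4, none and 2.57. *HES6*, a bHLH factor (54.1, 12.48 and 1.80), was the 1 of 32 proneural, HES and ID genes, and *ATOH8* and *ID2* (37.6, with no region in the other lines) were added by nearest protein-coding gene. The other strong regions likewise had 1 gene of this list and 3 by nearest protein-coding gene, *HES1*, *ID1* and *ID3*. No member had a nearest gene among 29 retinal and eye-field factors, 25 rhombic lip regulators, 19 SOX factors, 17 Hedgehog genes or 39 HOX genes.

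From the photoreceptor list of 49 genes, *CRX*, *OTX2*, *GNGT2*, *RP1L1* and *RBP3* were nearest to strong D425 regions that MB002 or HDMB03 matched. Of the vital SE genes of the study, chosen there partly on these libraries and therefore no independent list, 13 were looked up. None was the nearest gene of a member, and 5 were nearest to other strong regions. By nearest protein-coding gene, 2 of the 13, *MYC* and *KLHL29*, were assigned to a member and 6 to other strong regions, among them *SSBP3*. The *KLHL29* region (chr2:23478185-23530181) had 80.0 in D425, 8.25 in MB002, 3.51 in HDMB03 and none in UW228. Within 50 kb of the TSS, the D425 signal was 66.4 at *PSMB5*, 58.3 at *BMF*, 51.5 at *IGF2BP3*, 36.4 at *MARS1*, 29.0 at *KIF21B*, 20.1 at *SDK2*, 11.8 at *SSBP3*, 7.98 at *LRP8* and 0.691 at *AUTS2*. The region at *MARS1* was the one given above for *GLI1*. Within that distance MB002 was higher than D425 at *KIF21B* (94.6), *SDK2* (54.2), *SSBP3* (48.5), *LRP8* (48.1) and *AUTS2* (21.4), and within 3 units of it at *BMF* (59.7) and *IGF2BP3* (49.7). D425 was in turn higher at *PSMB5* (12.6 in MB002 and 19.9 in HDMB03), *MARS1* (11.8 in MB002) and *KLHL29* (19.7 against 13.4 in MB002). The strong D425 region assigned to *SSBP3* lay beyond that distance.

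Some members lay close together. Clusters of at least 3 members with gaps of at most 1 Mb numbered 8 and held 32 of 205 members. The same count was not made for the other strong regions, so that this one cannot be set against them. Besides the run on chromosome 14, the largest were 6 members between 66078742 and 68350055 on chromosome 11, around *PACS1*, *KDM2A*, *CLCF1*, *CHKA* and *LRP5*, and 5 between 36321403 and 37763367 on chromosome 22, around *MYH9*, *TST*, *CARD10*, *CDC42EP1* and *TRIOBP*. Runs of 24, 34, 55 and 37 neighbouring regions at most 12 kb apart also lay inside the cluster on chromosome 11. Smaller clusters held *CEBPA* with *CEBPG* and *RHPN2*, *JAG1*, *FOXA2*, *XBP1* with *KREMEN1*, and *ZNF281*. Input was not much raised at the members outside the windows, where the relative input density was at most 2.53, and the median over all members was 0.959, against 1.29 in the other strong regions.

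Sequence content over whole regions was much alike. Members held 46.6% G and C, other strong D425 regions 47.8%. TAATCC, the core bound by *OTX2* and *CRX*, occurred 0.926 times per kb in members and 0.931 in the other strong regions, counting both strands. GGAATG, the TEAD core, occurred 0.613 and 0.591 times per kb, and TGACTCA, the AP-1 motif whose reverse complement is TGAGTCA, 0.18 and 0.183. The E-box CACGTG occurred 0.142 and 0.151 times, CAGATG 0.784 and 0.826, CAGCTG 0.532 and 0.581, and ACAAAG, a SOX core, 0.788 and 0.76. None of these motifs contains another, but matches may overlap at their ends. For comparison, MB002-particular regions had 43.1% G and C and 0.786 TAATCC per kb, and HDMB03-particular regions 49.9% and 0.617. Over all RefSeq promoters of 250 bases, 5.62% held TAATCC, 6.32% CACGTG, 12.2% CAGATG, 14% CAGCTG, 4.22% TGACTCA, 11.9% GGAATG and 13.7% ACAAAG. A match is a stretch of letters and not a site shown to be bound.

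The windows around *OTX2* and *MYC* are given separately, since D425 input was raised in both. In chr14 56-59 Mb, D425 had 26 regions. The relative input density was 5 or more in 4 of them, and 2 were among the 500 strongest. They lay at *OTX2* (chr14:56806457-56811176; 353.9 in D425, 733.5 in MB002 and 208.3 in HDMB03; relative input density 53.3) and *OTX2-AS1* (chr14:56887028-56902954; 128.4, 208.5 and 5.39; 47.4). Neither was D425-particular. MB002 had 56 regions in this window with 14 among its strongest and a median relative input density of 30.2, and HDMB03 had 43 with 4 and 4.49. The signal of the window summed to 569.1 in D425, 5277 in MB002 and 627.8 in HDMB03, so that D425 had a narrower set of strong regions there than MB002.

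In the window around *MYC*, the 3 Mb of chromosome 8 that end at 130 Mb, D425 had 27 regions, of which 11 reached that input density and 6 were among the 500 strongest. The strongest pair lay nearest to *CCAT2*, a non-coding RNA gene upstream of *MYC* (1318 in D425, 1064 in MB002 and 524.4 in HDMB03, then 693.4, 385.3 and 524.4). The region over *MYC* (chr8:127734279-127738904) had 258.6 in D425 and 382.9 in MB002, with no overlapping region in HDMB03 or UW228. Both had a region nearest to *MYC* just beyond it, of 4.30 in HDMB03 (chr8:127754247-127754704, relative input density 153.2) and 14.4 in UW228 (chr8:127738935-127761377). A region nearest to *CASC11* (chr8:127624977-127647501) had 112.0, 511.7 and 40.8. These 4 were matched in at least 1 line. Both remaining regions were D425-particular single peaks without an overlapping region in any other line. A peak of 2.24 kb nearest to *MIR3686* (chr8:129072886-129075123) had a signal of 64.0 at a relative input density of 134.2, and a peak of 1.31 kb nearest to *CASC11* (chr8:127715249-127716553) had 36.1 at 65.0. They were the only 2 of 205 members with a relative input density of 5 or more. The part of the raised input in their signal was not tested.

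The members closest to the threshold were *ACTN4* (4.05-fold above the higher other line), *MIR6124* (4.08-fold) and *FAM135B* (4.12-fold). Just outside it were *SLC2A10* (3.95-fold), *DIP2B* (3.79-fold) and *LINC00963* (*NTMT1*; 3.79-fold), whose signals of 55.9, 40.3 and 83.1 in D425 compare with 14.2, 10.6 and 21.9 in the higher other line.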

How the data were processed

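H3K27Ac ChIP-seq and input libraries of D425, MB002, HDMB03 and UW228 were compared, 1 of each kind per line. Per the methods, the authors' reads were mapped to GRCh38, MACS2 peaks were called against input, and ROSE stitched and ranked the peaks. The submitters' processing notes name Bowtie2 2.3.0, SAMtools 1.9 and MACS2 2.2.6. The methods leave out promoter flanks before stitching, yet 103 members still hold a TSS. The deposited signal of a region, for ChIP and for input, is in normalized reads per bp multiplied by its length, and the authors did not subtract input from it. The deposited score is the ROSE rank with an SE call.

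Input was subtracted, the remainder was divided by the median of the line, and regions were matched by overlap with Python 3.11.15, numpy 2.4.6 and pandas 2.3.3. Plots were drawn with matplotlib 3.10.9. No tests were run, since no line had replicates. The rule was checked on simulated data. Genes were curated RefSeq genes with RefSeq start sites and with strands from GENCODE 44, and the nearest TSS to the centre of a region was used. Promoter sequences were from RefSeq (GRCh38.p14).

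The members and gene lists were chosen with earlier results of these data known. Named genes were those nearest to the 25 strongest members outside the 2 windows, to the 500 strongest regions inside them, list genes nearest to a member, the vital SE genes, and the 3 regions on each side of the threshold. Others are named as chosen after their values were seen or as genes inside a run or cluster. Alternatives changed the input, scale, overlap, fold, number of regions, chromosomes, windows, other lines and gene assignment. Merging neighbours, signal per bp of called peak and leaving out the 2 runs were added after the data were seen. Some genes are not reported here.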

Additional observations from a re-analysis of the deposited data

How the results depend on the processing

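The count of 205 members stayed within 1.5 times under no input subtraction, other scalings, other overlap rules, 2-fold, 8-fold and the merging of neighbours. It became 89 per bp, 50 per bp of called peak, 40 with no overlap only, 108 of the 250 strongest, 435 of the 1000 strongest and 330 with HDMB03 as the only other line. The share with no overlapping region became 59.55% per bp, 78.0% per bp of called peak, 32.06% after division by relative input density, 14.08% at 2-fold, 26.85% at 8-fold, 100.0% by construction with no overlap only, 28.97% of the 1000 strongest, 27.38% with MB002 only and 30.61% with HDMB03 only. The share overlapping UW228 became 33.71% per bp, 34.0% per bp of called peak and 63.76% after that division. The SE share became 12.36%, 26.0% and 58.19% in the same order, 75% with no overlap only, 40.92% of the 1000 strongest, and 100.0% both of the 250 strongest and, by construction, of called SEs. Per bp, the higher other line exceeded D425, as a percent of the D425 signal, at *SPTBN1-AS1* (101.6%), *MYH9-DT* (129.2%), *LINC01819* (318.8%), *ACTN4* (109.2%), *TNS3* (105.1%), *LINC01713* (123.4%), *MED9* (109.2%), *LINC02004* (160.6%), *PTPRF* (414.1%) and *ABCC4* (286.3%). Per bp of called peak it did so at *MIR6124* (122.4%), *LINC01819* (124.7%), *LINC02004* (107%), *PTPRF* (181.5%), *ABCC4* (120.6%) and *JAG1* (106.6%). Under both scales the total over length is divided out. No paired analysis was possible because no result comes from a test. With 1 library per line, the spread between cultures is unknown, and the depth is unknown too.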

Other observations

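In the opposite direction, 52 of the 500 strongest MB002 regions (10.4%) had a match within 4-fold in HDMB03 but were absent or at least 4-fold weaker in D425, of which 5 had no D425 region. Another 149 were matched in both lines. The strongest of the 52 lay at *ASIC4*, an acid-sensing ion channel gene (136.1 in MB002, 43.6 in HDMB03 and 33.7 in D425), *BCOR*, a transcriptional corepressor (84.8, 32.5 and 19.2), and *MIR4424* (*RALGPS2*; 83.9, 65.5 and 11.4). *ROR1*, a WNT5A receptor, had 76.8, 46.2 and 5.42. The vital SE gene *LRP8* was also nearest to 1 of the 52, with 48.1 in MB002, 29.2 in HDMB03 and 5.92 in D425. These genes were named after their values were seen.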
